A study of Mus musculus with 6 samples.

Results

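The genes described here are 10 genes of the interleukin-1 (IL-1) system and of the inflammasome: Il1a, Il1b, Il1rn, Il1r2, Il1rap, Il18, Casp1, Nlrp3, Pycard and Gsdmd. They were chosen by name from a fixed list and matched by symbol in the authors' annotated expression table, which holds 16111 genes. All 10 were found, and 9 had enough counts to be tested, Il1r2 being the exception. The samples were 6 macrophage cultures grown from mouse fetal liver, 3 of wild-type and 3 of Ahrr-deficient (AhRR-/-) C57BL/6 RCC origin, with mice numbered 1 to 3 in each group. All cells were taken at E13.5 of embryonic life, kept for 5 weeks in medium with 2% GM-CSF, and harvested from the non-adherent fraction, and no stimulus is named in the labels. Ahrr encodes a protein that represses AhR, the aryl hydrocarbon receptor, which switches genes on when small molecules bind it. The comparison asks how transcript levels change in cells that lack this repressor.

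IL-1α and IL-1β, the products of Il1a and Il1b, are cytokines that bind the same receptor, which needs the accessory chain encoded by Il1rap to signal. Il1rn encodes a receptor antagonist and Il1r2 a decoy receptor, and both limit IL-1 action. IL-1β and IL-18 are made as inactive precursors. An inflammasome, in which the sensor NLRP3 and the adaptor ASC (Pycard) recruit caspase-1 (Casp1), cleaves them and also cleaves gasdermin D (Gsdmd), which then forms the membrane pore of pyroptotic cell death. Transcript levels of Il1b and Nlrp3 in macrophages are known to be raised by inflammatory signals that act through NF-kB.

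Libraries held 3556106 to 41668336 counts. A floor of 3 counts is therefore 0.844 CPM (a count scaled to a library total of 1000000) in the shallowest library, Ahrr-deficient replicate 1, and 0.0720 CPM in the deepest, Ahrr-deficient replicate 2. The ribosomal RNA gene CT010467.1 took 5.28% of the counts of wild-type replicate 2 and at most 0.0679% elsewhere. Ahrr itself had 4.60, 4.29 and 5.32 CPM in wild-type libraries 1 to 3, against 2.25, 2.57 and 1.21 CPM in Ahrr-deficient libraries 1 to 3, with a log2 fold change of -1.21 (SE 0.26) at an edgeR adjusted p of 0.0151. Its reads were thus fewer but still present in the Ahrr-deficient libraries, and the labels do not say which part of the gene was removed. The macrophage identity given in the labels was checked on 10 listed markers, among them Lyz2, Cd68 and Csf1r. All 10 were detected, and their summed level was 22516 to 28015 CPM in wild-type and 16684 to 23755.5 CPM in Ahrr-deficient libraries. Listed eosinophil (4) and lymphoid (5) markers were not found by symbol among the genes with an identifier, which had at least 10 counts in total.

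Il1a and Il1b are neighbours on the minus strand of chromosome 2, and the 250 bases before their annotated starts are shown because Il1b passed the test between genotypes and Il1a did not. The Il1rap sequence is shown because it held the most copies of the AhR core motif among these genes. The sequences are from RefSeq (GRCm38.p6), which had an entry for 9 of the 10 genes, with 12 starts in all. They cover chr2:129309973-129310222 (minus strand) for Il1a, chr2:129371140-129371389 (minus strand) for Il1b and chr16:26581455-26581704 (plus strand) for Il1rap. Each is written 5′ to 3′ and ends at the base before the start. Capitals mark matches, on either strand, to the AhR core motif GCGTG, the AP-1 motif TGANTCA, the PU.1 motif GAGGAAG and the TATA box written TATAAA.
Il1a: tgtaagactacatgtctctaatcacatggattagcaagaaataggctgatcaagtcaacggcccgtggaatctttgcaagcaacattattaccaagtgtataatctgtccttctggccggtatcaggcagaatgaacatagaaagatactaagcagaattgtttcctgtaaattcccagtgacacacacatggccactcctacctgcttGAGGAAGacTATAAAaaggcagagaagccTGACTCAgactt
Il1b: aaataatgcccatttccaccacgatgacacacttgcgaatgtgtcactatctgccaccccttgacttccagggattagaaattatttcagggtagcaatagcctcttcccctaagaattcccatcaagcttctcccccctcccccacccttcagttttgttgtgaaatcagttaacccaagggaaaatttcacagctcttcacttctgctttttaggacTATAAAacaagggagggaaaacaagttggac
Il1rap: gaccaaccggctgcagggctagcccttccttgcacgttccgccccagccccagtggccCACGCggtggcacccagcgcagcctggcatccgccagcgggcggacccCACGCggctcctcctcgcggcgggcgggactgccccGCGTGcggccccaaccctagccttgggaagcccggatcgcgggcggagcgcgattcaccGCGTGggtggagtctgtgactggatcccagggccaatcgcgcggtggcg
The Il1a and Il1b windows both held TATAAA, at positions -32 to -27 and -31 to -26 from the start. Only Il1a of the pair also held GAGGAAG and TGANTCA. The GCGTG core was in neither of these windows, while it occurred 4 times in the Il1rap window, 2 times in the Il1r2 window and once in a window of Il1rn, where it shares bases with a TGANTCA match. Among the 32851 windows of the same length in the table, 28.2% held GCGTG, 12.4% TATAAA, 10.6% GAGGAAG and 6.75% TGANTCA. These shares count windows with any number of matches, so they give no background for 4 matches in a window. G and C made up 74.4% of the Il1rap window, against 42.4% for Il1a and 44.4% for Il1b. A longer NF-kB motif, also searched, was in 0 of the 12 windows of these genes and in 0.356% of all windows. A match describes the letters and does not show binding, and the lack of a match says only that the letters are not in the window.

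Il1b was the gene of the 10 that differed most between the genotypes. Il1b (ENSMUSG00000027398.13, chromosome 2, 129364570 to 129371139, GRCm38) had 242, 288 and 197 CPM in wild-type libraries 1 to 3, against 132, 70.6 and 76.5 CPM in Ahrr-deficient libraries 1 to 3. Every Ahrr-deficient library lay below every wild-type library, and replicate 1 was the highest of the Ahrr-deficient group. These values rest on 471 to 5313 counts per library. The mean fell from 242 ± 45.6 to 93.2 ± 34.1 CPM (SD, n = 3), with a log2 fold change of -1.50 (SE 0.26, 95% interval -2.08 to -0.91) and an edgeR adjusted p of 0.00658. Of the 11408 tested genes, 130 (1.14%) had a log2 fold change as low or lower. The call was kept in all 14 alternative fits, with a log2 fold change between -1.83, without Ahrr-deficient replicate 1, and -1.29, without wild-type replicate 2 (edgeR adjusted p 0.0279). The antisense gene Il1bos shares 25 exonic bases with Il1b and had 0 to 13 counts per library.

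**Figure D1:**
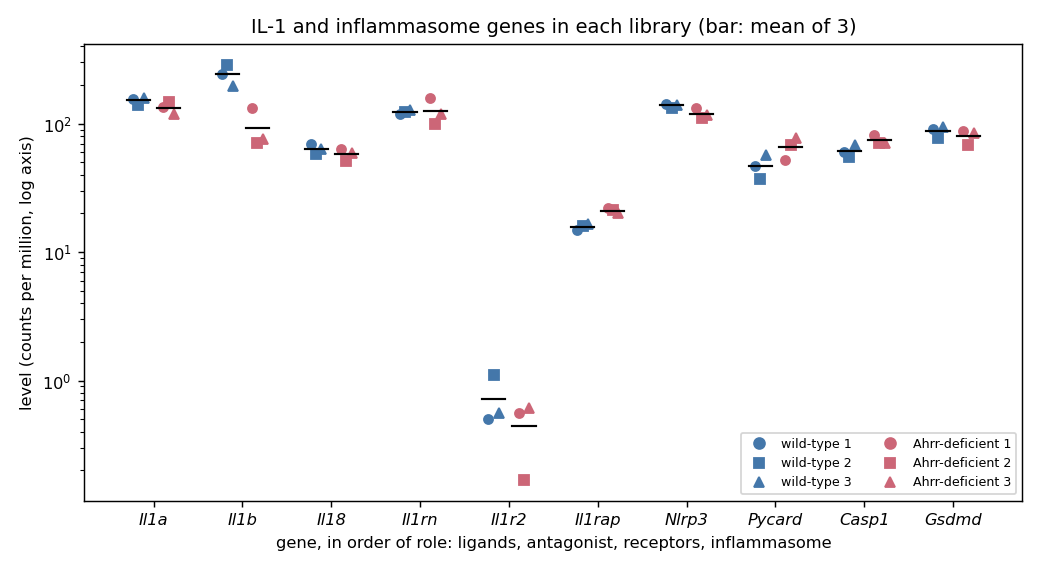
Level of each of the 10 genes in each library, in CPM on a log axis, with wild-type in blue, Ahrr-deficient in red, marker shape for the replicate number and a bar for the mean of 3. Il1b is the gene whose groups lie farthest apart, and Il1r2 lies near or below 1 CPM in all 6 libraries.

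Il1a, the other IL-1 agonist gene, did not pass the threshold, and its estimate was small beside that of Il1b. Il1a (ENSMUSG00000027399.1, chromosome 2, 129299610 to 129309972) had 156, 139.99 and 159 CPM in wild-type libraries 1 to 3, against 134, 147 and 118 CPM in Ahrr-deficient libraries 1 to 3. The groups overlapped in CPM, since Ahrr-deficient replicate 2 lay above wild-type replicate 2. They did not overlap in the authors' normalized signal. There the wild-type libraries 1 to 3 had 1657.2, 1635.1 and 1648.9, against 1393, 1500.7 and 1222.4 in Ahrr-deficient libraries 1 to 3. In the edgeR fit the log2 fold change was -0.26 (SE 0.09, 95% interval -0.47 to -0.06) with an edgeR adjusted p of 0.0718, so a fall of about the size of that of Il1b lay outside the interval. The edgeR adjusted p was 0.0479 with upper-quartile factors and 0.0388 without Ahrr-deficient replicate 1. An exon of Gm14023 overlaps Il1a by 222 bases on the opposite strand and had 56 to 567 counts per library. The strand setting of the counting is not given in the sources used here, so reads of genes that overlap on opposite strands cannot be told apart.

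Il18, which encodes the other cytokine precursor cut by caspase-1, had 69.8, 58.1 and 63.2 CPM in wild-type libraries 1 to 3, against 64.1, 51.4 and 58.96 CPM in Ahrr-deficient libraries 1 to 3. The groups overlapped, and the log2 fold change was -0.23 (95% interval -0.47 to 0.02, edgeR adjusted p 0.168). Il18 (ENSMUSG00000039217.13) lies on chromosome 9 from 50554827 to 50581840.

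Il1rn, the antagonist gene, did not pass the threshold. Il1rn (ENSMUSG00000026981.15, chromosome 2, 24336853 to 24351494) had 119, 124 and 129 CPM in wild-type libraries 1 to 3, against 158, 99.1 and 118 CPM in Ahrr-deficient libraries 1 to 3. The wild-type values lay inside the range of the Ahrr-deficient values, which were spread more widely (30.2 against 4.83 CPM, SD, n = 3). Its estimated log2 fold change was -0.07 (SE 0.16, 95% interval -0.44 to 0.29, edgeR adjusted p 0.775). It rested on single libraries, being -0.29 without Ahrr-deficient replicate 1 (edgeR adjusted p 0.0484) and 0.08 without Ahrr-deficient replicate 2 (edgeR adjusted p 0.748).

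The balance of Il1b against these 2 genes was compared within libraries, which removes the library total from the comparison. The ratio of Il1b to Il1rn counts was 2.04, 2.33 and 1.53 in wild-type libraries 1 to 3, against 0.837, 0.712 and 0.646 in Ahrr-deficient libraries 1 to 3. Il1b reads thus outnumbered Il1rn reads in every wild-type library and in no Ahrr-deficient library. These counts are not divided by gene length, so a ratio of 1 does not mark equal levels. Per kilobase of annotated exon, Il1b had 69.5, 37.0 and 40.1 CPM in Ahrr-deficient libraries 1 to 3. Il1rn had 28.6, 17.9 and 21.4 there, below Il1b in each library. The mean ratio was 1.96 ± 0.403 against 0.732 ± 0.0967 (SD, n = 3), a difference of -1.41 in log2, with an exact permutation p of 0.1, two-sided, the smallest that 3 against 3 libraries can give. The ratio of Il1b to Il1a was 1.55, 2.06 and 1.24 in wild-type libraries 1 to 3, against 0.989, 0.480 and 0.647 in Ahrr-deficient libraries 1 to 3. Its difference was -1.23 in log2 (exact permutation p 0.1, two-sided), and the groups did not overlap. Adjusted over these 2 ratios by the Benjamini-Hochberg method, both p-values stay at 0.1.

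**Figure D2:**
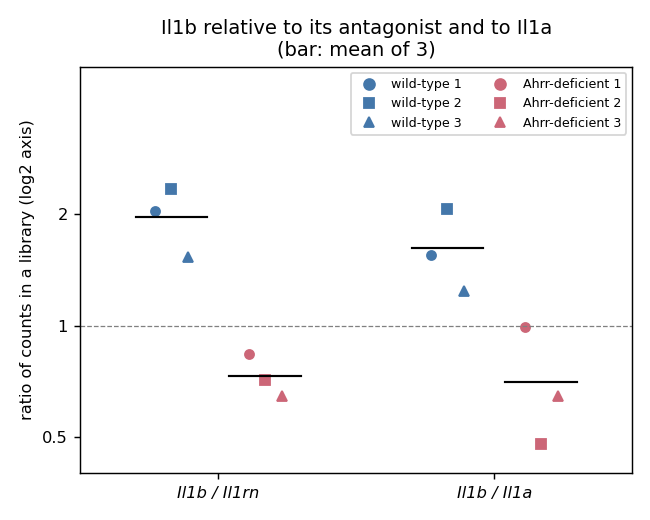
Ratio of Il1b counts to Il1rn counts and to Il1a counts in each library, on a log2 axis, with wild-type in blue, Ahrr-deficient in red, and a bar for the mean of 3. Both ratios are above 1 in the 3 wild-type libraries and below 1 in the 3 Ahrr-deficient libraries. The counts are not divided by gene length, so 1 does not mark equal levels.

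The receptor genes were weakly represented. Il1r2, the decoy receptor gene (ENSMUSG00000026073.13, chromosome 1, 40074079 to 40125231), had 11, 7 and 4 counts in wild-type libraries 1 to 3, against 2, 7 and 6 counts in Ahrr-deficient libraries 1 to 3. The count of Ahrr-deficient replicate 1 was below the floor of 3 counts, and a difference between the genotypes was not detectable at this depth. Il1r1, the gene of the signalling receptor and not one of the 10 genes, had 4, 1 and 1 counts in wild-type libraries 1 to 3, against 2, 13 and 1 in Ahrr-deficient libraries 1 to 3, or at most 0.562 CPM. The accessory chain gene Il1rap was above both. Il1rap (ENSMUSG00000022514.14, chromosome 16, 26581704 to 26730117) had 14.9, 15.9 and 16.5 CPM in wild-type libraries 1 to 3, against 21.9, 21.2 and 20.1 CPM in Ahrr-deficient libraries 1 to 3. The 3 Ahrr-deficient libraries lay above the wild-type libraries with little spread in either group, at a log2 fold change of 0.35 (SE 0.11, 95% interval 0.10 to 0.59). The edgeR adjusted p was 0.0526, which missed the threshold of 0.05. It was 0.0350 with limma-voom, 0.0464 by edgeR without Ahrr-deficient replicate 1 and 0.158 with DESeq2. The antisense gene Gm20319 shares 552 exonic bases with Il1rap and had no entry in the table.

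Nlrp3, the sensor gene, was slightly lower in Ahrr-deficient cells, at the edge of the threshold. Nlrp3 (ENSMUSG00000032691.14, chromosome 11, 59541568 to 59566956) had 143.57, 132.05 and 141.09 CPM in wild-type libraries 1 to 3, against 131.89, 110.83 and 117.1 CPM in Ahrr-deficient libraries 1 to 3. The groups did not overlap, although wild-type replicate 2 and Ahrr-deficient replicate 1 were almost equal. On the log2 scale the fold change was -0.29 (SE 0.09, 95% interval -0.50 to -0.09) with an edgeR adjusted p of 0.04997. The call was kept in 4 of 14 alternative fits, in which the adjusted p ran from 0.00276 to 0.177, while the log2 fold change stayed between -0.38 and -0.23. The edgeR adjusted p was above 0.05 in 5 of the 6 fits that left out a library, the exception being the fit without Ahrr-deficient replicate 1.

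The genes acting after the sensor did not pass the edgeR threshold with all 6 libraries, and their point estimates did not share a direction. Pycard, the adaptor gene (ENSMUSG00000030793.4, chromosome 7, 127989708 to 127993867), had 47.2, 36.8 and 56.6 CPM in wild-type libraries 1 to 3, against 52.0, 68.5 and 77.7 CPM in Ahrr-deficient libraries 1 to 3. Its groups overlapped through Ahrr-deficient replicate 1, at a log2 fold change of 0.44 (95% interval 0.10 to 0.79, edgeR adjusted p 0.0671). Pycard passed the threshold with DESeq2 (adjusted p 0.0489), with edgeR and no filter on low counts (0.00159) and without Ahrr-deficient replicate 1 (0.0112), higher in Ahrr-deficient cells each time. Gm45205 overlaps 485 of its exonic bases on the opposite strand. Casp1, the protease gene (ENSMUSG00000025888.5, chromosome 9, 5298517 to 5307265), had 60.1, 55.2 and 67.95 CPM in wild-type libraries 1 to 3, against 81.3, 70.5 and 71.3 CPM in Ahrr-deficient libraries 1 to 3. Its groups did not overlap, and the log2 fold change was 0.20 (95% interval -0.01 to 0.42, edgeR adjusted p 0.157). Gsdmd, the pore gene (ENSMUSG00000022575.4, chromosome 15, 75862327 to 75867408), had 91.5, 77.8 and 94.9 CPM in wild-type libraries 1 to 3, against 88.3, 67.9 and 84.1 CPM in Ahrr-deficient libraries 1 to 3. Its groups overlapped, with a log2 fold change of -0.22 (95% interval -0.48 to 0.03, edgeR adjusted p 0.189). The intervals of these 3 genes held no fall of the size of that of Il1b.

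Over the 10 genes, 2 of the 9 tested were past the edgeR adjusted p of 0.05, Il1b and Nlrp3, both lower in Ahrr-deficient cells. Of all tested genes, 19.6% were past it in either direction and 9.95% were past it and lower, so the count of 2 of 9 is near the background. At an unadjusted p under 0.05 edgeR gave 5 of the 9, against 35.8% of all tested genes. The groups did not overlap in CPM for 4 of the 9, lower for Il1b and Nlrp3 and higher for Il1rap and Casp1, against 36.6% of all tested genes. The median log2 fold change was -0.22 over the 9 genes and 0.01 over all tested genes, and the median absolute value was 0.26 against 0.22. What set Il1b apart from the other 8 was therefore the size of its difference, since their log2 fold changes lay between -0.29 and 0.44.

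The count depended on Ahrr-deficient replicate 1, the shallowest library. Without it 8 of the 9 genes were past the threshold, 6 lower and 2 higher, and the exception was Casp1. The background rose as well, to 32.6% of all tested genes, with 16.6% lower. In that fit Il1b had a log2 fold change of -1.83, Il1rn of -0.29, Il18 and Gsdmd of -0.31, Il1a of -0.28 and Nlrp3 of -0.38, while Il1rap had 0.32 and Pycard 0.55. Ahrr-deficient replicate 1 was the highest library of its group for Il1b, Il1rn, Il18, Nlrp3, Gsdmd, Il1rap and Casp1, and the lowest for Pycard. With any other single library left out, Il1b was the only one of the 9 past the threshold.

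**Figure D3:**
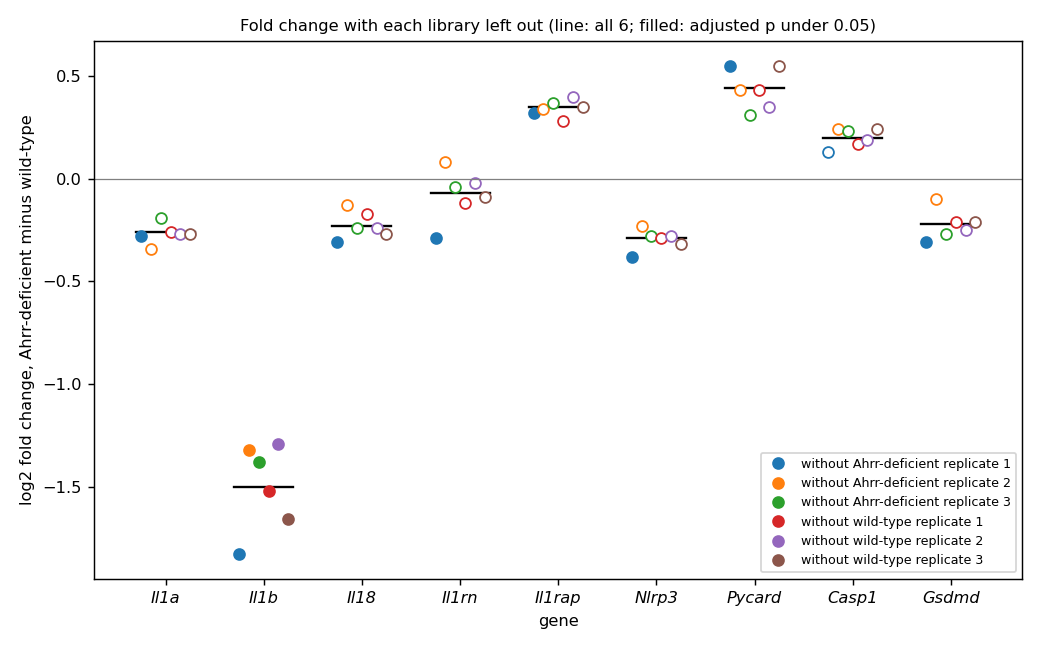
Log2 fold change of the 9 tested genes with each library left out in turn, with a line for the value from all 6 libraries and filled circles where the edgeR adjusted p was under 0.05. The 6 Il1b values lie between -1.83 and -1.29 and are all filled, and for the other genes a filled circle appears only in the fit without Ahrr-deficient replicate 1.

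Levels of different genes were compared per kilobase of annotated exon. In wild-type cells Il1b had the highest level of the 10, at 127 ± 23.9 CPM per kb (SD, n = 3), followed by Il1a at 76.9 ± 5.22 and Il18 at 61.8 ± 5.68. Casp1 (40.8 ± 4.29), Gsdmd (37.0 ± 3.81) and Nlrp3 (34.2 ± 1.49 CPM per kb) came next, and neither Casp1 and Gsdmd nor Gsdmd and Nlrp3 differed beyond their spread. Il1rn (22.4 ± 0.872), Pycard (12.3 ± 2.60), Il1rap (1.39 ± 0.0721) and Il1r2 (0.380 ± 0.176 CPM per kb) were lower. In Ahrr-deficient cells Il1b moved to the fourth place, at 48.9 ± 17.9 CPM per kb, behind Il1a (67.4 ± 7.38), Il18 (56.4 ± 6.20) and Casp1 (49.7 ± 4.01 CPM per kb). Its spread overlapped that of each of these. These levels depend on the length used. With the longest annotated transcript the Il1b mean was 179 ± 33.6 in wild-type and 68.7 ± 25.2 CPM per kb in Ahrr-deficient cells (SD, n = 3). Its mean ranked first of the 10 in both groups, but in Ahrr-deficient cells Il1a (67.4 ± 7.38) lay within its spread. There Il1b had 97.7, 52.1 and 56.4 CPM per kb in libraries 1 to 3, against 67.8, 74.6 and 59.8 for Il1a.

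**Figure D4:**
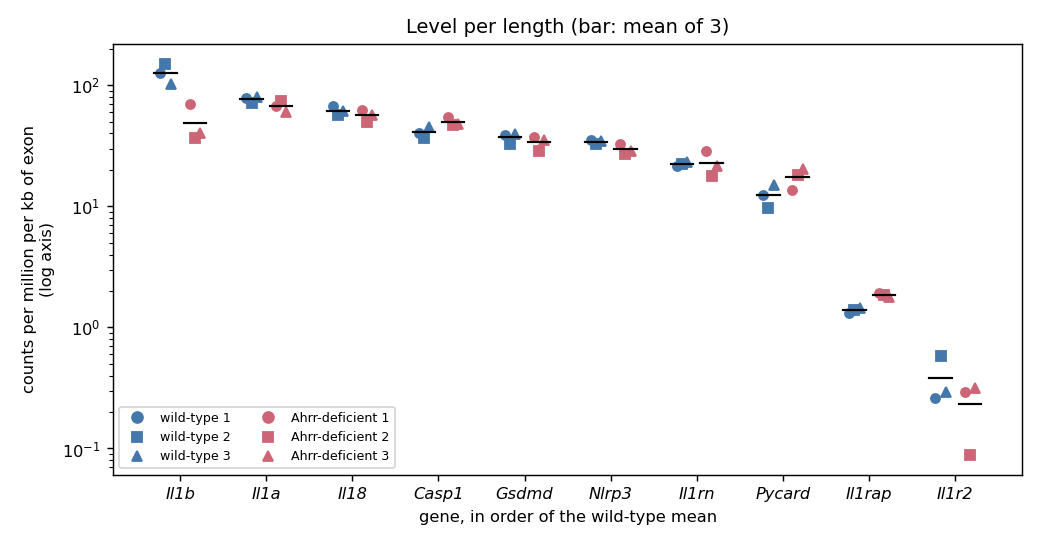
Level of each of the 10 genes in CPM per kilobase of annotated exon, on a log axis, ordered by the wild-type mean, with wild-type in blue, Ahrr-deficient in red and a bar for the mean of 3. Il1b is first in wild-type libraries (127 CPM per kb) and falls to 48.9 CPM per kb, the level of Casp1, in Ahrr-deficient libraries.

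The wider pathway was read from a list of 54 further genes, of which 44 were in the table and 41 were tested. In Ahrr-deficient cells 4 were higher and 1 was lower at an edgeR adjusted p under 0.05, against 9.62% higher and 9.95% lower among all tested genes. Without Ahrr-deficient replicate 1 the count of 5 became 12, in a fit where 32.6% of all tested genes were past the threshold. The count was 2 without wild-type replicate 1, and 3 without wild-type replicate 2 or Ahrr-deficient replicate 2. The listed genes Il36a, Il36b, Il36rn, Il1f10, Il1rl1, Il18r1, Nlrp6, Nlrp12, Mefv and Casp12 had no entry under these symbols in the table. Il33, Il1r1 and Il18rap had too few counts to be tested.

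Of the other IL-1 family genes, the IL-36 ligand and receptor genes were higher, in contrast to Il1b. Il1f9 (ENSMUSG00000044103.4, chromosome 2, 24186476 to 24193568), an older symbol of Il36g, encodes the agonist IL-36γ. It had 0.729, 0.952 and 1.82 CPM in wild-type libraries 1 to 3, against 2.81, 7.01 and 3.44 CPM in Ahrr-deficient libraries 1 to 3. The groups did not overlap, and the lowest count was 6, in wild-type replicate 2. The estimated log2 fold change came to 2.23 (SE 0.43) at an edgeR adjusted p of 0.0100. Without wild-type replicate 1 the edgeR adjusted p was 0.0800 and the log2 fold change 1.73, and without Ahrr-deficient replicate 2 they were 0.0553 and 1.56.

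Il1rl2 (ENSMUSG00000070942.8, chromosome 1, 40324610 to 40367562) encodes the IL-36 receptor chain, which signals with the product of Il1rap. It had 26.8, 18.9 and 31.5 CPM in wild-type libraries 1 to 3, against 46.7, 51.2 and 48.8 CPM in Ahrr-deficient libraries 1 to 3. All Ahrr-deficient libraries lay above all wild-type libraries, and the mean rose from 25.7 ± 6.38 to 48.9 ± 2.24 CPM (SD, n = 3). The log2 fold change came to 0.86 (SE 0.13) at an edgeR adjusted p of 0.00452, and the call was kept in all 14 alternative fits. The other tested receptor-level genes, Sigirr, Il18bp and Adam17, did not pass the threshold, with log2 fold changes between -0.45 and 0.02.

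Of the 14 signalling genes, Myd88 alone was past the threshold in the reported edgeR fit, against 19.6% of all tested genes. Myd88 (ENSMUSG00000032508.8, chromosome 9, 119335934 to 119341411) encodes the adaptor that IL-1 family and Toll-like receptors share, and had 45.1, 37.5 and 46.8 CPM in wild-type libraries 1 to 3, against 46.7, 69.98 and 67.5 CPM in Ahrr-deficient libraries 1 to 3. The groups overlapped in CPM through Ahrr-deficient replicate 1. They did not overlap in the authors' normalized signal, although wild-type replicate 3 (485) and Ahrr-deficient replicate 1 (486) were almost equal. The log2 fold change came to 0.46 (SE 0.14) at an edgeR adjusted p of 0.0435, and the call was kept in 5 of 14 alternative fits. It was lost in each fit that left out a library other than Ahrr-deficient replicate 1. An exon of Acaa1a overlaps it on the opposite strand. The 13 other signalling genes, which include the IRAK kinases, Traf6 and the TAK1 complex, had log2 fold changes between -0.29 and 0.27. Of these, Tollip passed the threshold after thinning and without Ahrr-deficient replicate 1. Irak2 passed it without Ahrr-deficient replicate 2, and Chuk without Ahrr-deficient replicate 3.

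None of the 9 other sensor genes tested was past the adjusted threshold in the reported edgeR fit, with DESeq2 or with limma-voom, against 19.6% of all tested genes with edgeR. At an unadjusted p under 0.05 the count was 0 with edgeR, 0 with DESeq2 and 1 with limma-voom, against 35.8% of all tested genes with edgeR. The 9 sensor genes were Aim2, Nlrc4, Nlrp10, the Nlrp1 genes and the Naip genes, with log2 fold changes between -0.35 (Nlrc4) and 0.59 (Nlrp1a). Values of the Naip and Nlrp1 genes are uncertain because their copies are similar in sequence. Among the 9 sensor genes only Nlrp1a and Aim2 had a point estimate above 0. Without Ahrr-deficient replicate 1 edgeR called Naip1, Naip2, Naip5, Naip6 and Nlrc4, in a fit where 32.6% of all tested genes were past the threshold. With no filter on low counts edgeR called Nlrc4.

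Of 9 regulator genes, 1 was higher and 1 lower, against 9.62% higher and 9.95% lower among all tested genes. P2rx7, another of the 9, was past the threshold only in the fit without Ahrr-deficient replicate 1. Serpinb1a (ENSMUSG00000044734.16, chromosome 13, 32842092 to 32851185) encodes a serpin known to restrain inflammatory caspases. It had 38.7, 28.7 and 31.7 CPM in wild-type libraries 1 to 3, against 52.0, 110 and 88.9 CPM in Ahrr-deficient libraries 1 to 3. The groups did not overlap, with Ahrr-deficient library 1 nearest to wild-type. The log2 fold change came to 1.29 (SE 0.22) at an edgeR adjusted p of 0.00665, and the call was kept in all 14 alternative fits. Reads of Serpinb1a can be shared with its close paralogs.

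Txnip (ENSMUSG00000038393.14, chromosome 3, 96557957 to 96561883) encodes a thioredoxin-binding protein that has been described as a partner of NLRP3. It had 1734, 1852 and 1697 CPM in wild-type libraries 1 to 3, against 1482, 1265 and 1360 CPM in Ahrr-deficient libraries 1 to 3. The groups did not overlap, and the log2 fold change came to -0.44 (SE 0.13) at an edgeR adjusted p of 0.0432. The call was kept in 8 of 14 alternative fits and lost in each fit that left out a library other than Ahrr-deficient replicate 1. Gm15441 overlaps Txnip on the opposite strand.

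Of the other caspase and cell death genes, Casp4, Casp8, Gsdme and Ninj1 did not pass the threshold in the reported edgeR fit, nor with DESeq2 or limma-voom. By edgeR 2 of the 4 had an unadjusted p under 0.05, against 35.8% of all tested genes. Casp4 lies beside Casp1 on chromosome 9 and had a log2 fold change of 0.36, with 0.0624 as its edgeR adjusted p, with no overlap between the groups. Ninj1, which encodes a protein of plasma membrane rupture, had a log2 fold change of -0.54, with 0.104 as its edgeR adjusted p. Ninj1 did pass the threshold by edgeR with no filter on low counts and without wild-type replicate 3.

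**Figure D5:**
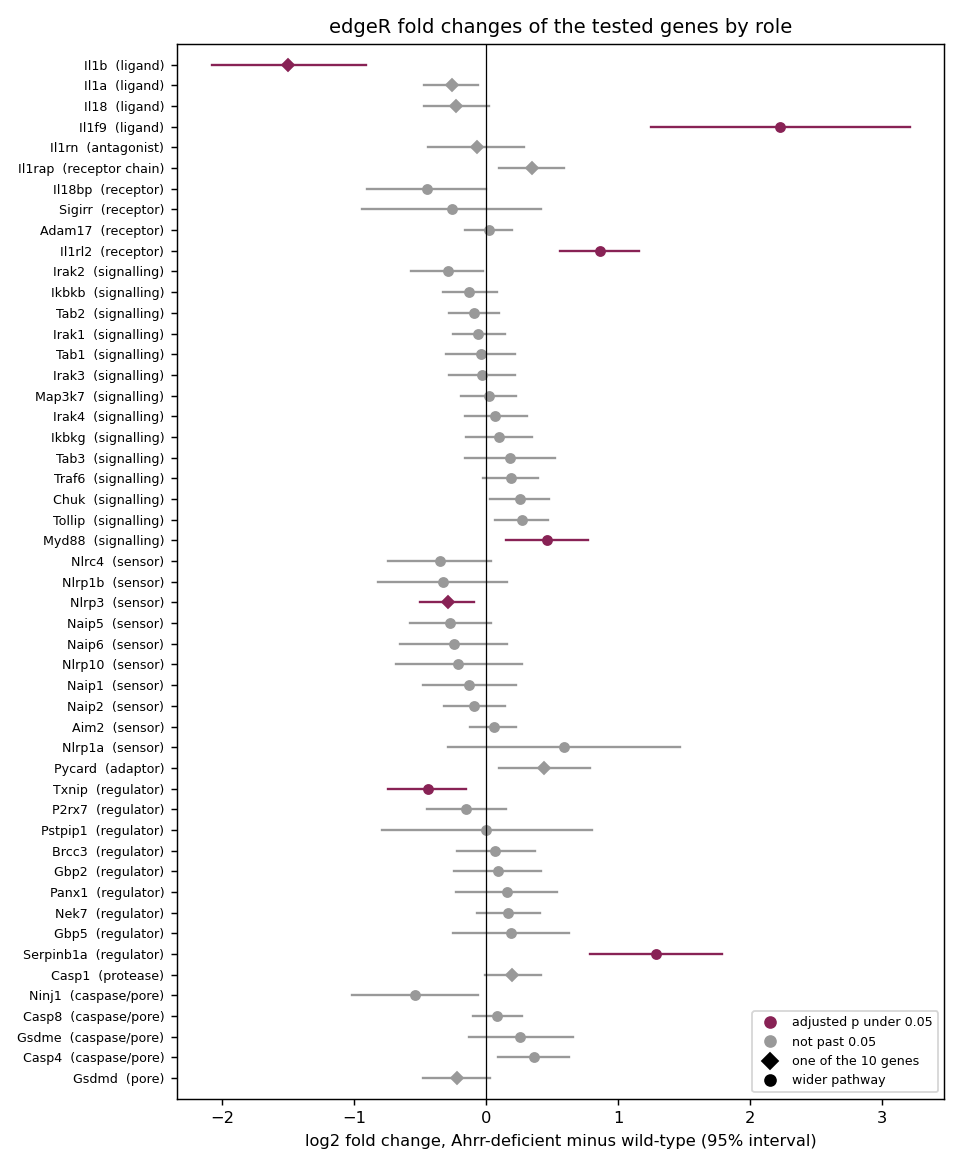
Log2 fold change of Ahrr-deficient minus wild-type cells with its 95% interval for the 50 tested genes of the list and the wider pathway, ordered by role, with diamonds for the 9 tested genes of the 10 and purple where the edgeR adjusted p was under 0.05. Il1b at -1.50 and Il1f9 at 2.23 lie farthest from 0 in their directions.

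Genes near Il1b were read to see whether its fall was shared along the chromosome. Of 13 tested genes within 500 kb of Il1b, Il1a among them, 1 was higher and 1 lower, against the background of 9.62% and 9.95% given above. These were Slc20a1, at a log2 fold change of 0.42, with 0.0192 as its edgeR adjusted p, and Zc3h6, at -0.84 (edgeR adjusted p 0.0211), and both are named here after their values were seen. Neither estimate was as large as that of Il1b. The count of 2, taken over these genes and Casp4, ran from 0 to 5 with a library left out. It was 5 without Ahrr-deficient replicate 1, where 32.6% of all tested genes were past the threshold. It was 1 without wild-type replicate 2 and 0 without any other. Around Casp1 the only tested gene within 500 kb was Casp4.

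Markers of other cell types were set beside the fall of Il1b, because neutrophils also express it. In RNA from whole cultures, fewer cells of a type and less RNA per cell cannot be told apart. Of 10 listed neutrophil markers, 3 were in the table, and their summed level was lower in every Ahrr-deficient library than in any wild-type library. It was 12.9, 11.6 and 26.2 CPM in wild-type libraries 1 to 3, against 9.84, 2.83 and 3.84 CPM in Ahrr-deficient libraries 1 to 3. Within the wild-type group its order was the reverse of that of Il1b, which had 242, 288 and 197 CPM. Most of the neutrophil sum was Cxcr2, which had 11.6, 9.21 and 24.7 CPM in wild-type libraries 1 to 3, against 8.44, 2.14 and 3.13 CPM in Ahrr-deficient libraries 1 to 3. Library 1 was the highest of the Ahrr-deficient group for Cxcr2, as it was for Il1b, Il1rn, Il18, Nlrp3, Gsdmd, Il1rap and Casp1. The log2 fold change of Cxcr2 was -2.25 at an edgeR adjusted p of 0.0158. Whether neutrophil content had a part in the fall of Il1b was not tested. S100a8, one of the most abundant transcripts of neutrophils, had 0.480 to 2.22 CPM, and Ltf had at most 0.560 CPM. S100a9, Ly6g, Mpo, Elane, Camp, Ngp and Retnlg had no entry under these symbols in the table, which holds genes with at least 10 counts in total.

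Some markers of alveolar-type macrophages and of other cells passed the threshold, in both directions. Of 7 listed alveolar-type markers 3 were higher and 1 lower, with a log2 fold change of 3.10 for Car4, 1.70 for Itgax, 0.64 for Pparg and -1.44 for Ear1 (edgeR adjusted p 0.00622, 6.96e-04, 0.00736 and 0.0173), against 9.62% higher and 9.95% lower among all tested genes. Siglecf, Ear2 and Marco did not pass it. The summed level of the 7 was 1476.1 to 2015 CPM in wild-type and 1651.8 to 2478.8 CPM in Ahrr-deficient libraries, so the groups overlapped. Of 10 general macrophage markers, Csf1r was lower (log2 fold change -0.65, edgeR adjusted p 0.0304) and the others did not pass the threshold. Point estimates were below 0 for 9 of the 10 and above 0 for 1. Their median log2 fold change was -0.31, against 0.01 over all tested genes. The 3 detected of 6 dendritic cell markers summed to 57.6 to 62.1 CPM in wild-type and 72.0 to 93.2 CPM in Ahrr-deficient libraries, mainly through Clec9a (log2 fold change 0.49, edgeR adjusted p 0.0256), whose exons overlap Clec1b. Zbtb46 did not pass the threshold, at a log2 fold change of -0.32. The 4 detected of 6 stromal and endothelial markers summed to 3.50 to 10.5 CPM in wild-type and 1.82 to 4.50 CPM in Ahrr-deficient libraries, most of it Pdgfra. Itga2b, the 1 detected of 4 megakaryocyte markers, had 2.698 to 3.01 CPM in wild-type and 1.21 to 1.97 CPM in Ahrr-deficient libraries (log2 fold change -1.10, edgeR adjusted p 0.0147). The detected mast cell, erythroid and hepatocyte markers did not exceed a sum of 0.864 CPM in any library. The part of these differences in the change of Il1b was not tested.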

How the data were processed

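RNA was sequenced from 6 cultures of mouse fetal liver macrophages, 3 wild-type and 3 Ahrr-deficient, as single 75 bp reads from TruSeq version 2 libraries, per the labels' protocols. CASAVA 1.8.2, fastp 0.20.0, STAR 2.7.10b, SAMtools 1.16.1, R 4.3.1, DESeq2 1.40.2 and the mm10 build are named in the submitters' processing notes. The counting program, annotation and strand setting are not given in the sources used here. The authors deposited raw counts for 53465 features without identifiers, and a normalized signal with identifiers for 16111 genes. Each deposited signal value times its library's size factor was a whole read count (100% within 0.001 reads) and matched the raw counts of the 16111 features with at least 10 counts. Features without an identifier held 0.0232% to 0.0511% of a library and entered the totals only.

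The sample titles gave each library its genotype and number. Differences in counts were assessed by edgeR 4.0.16 (quasi-likelihood F test, R 4.3.3, TMM scaling, filterByExpr, genotype as the only term), checked on simulated data, with Benjamini-Hochberg adjustment over 11408 genes and a threshold of 0.05. CPM are counts per 1000000 counts of the library total. SEs come from the fold change and the F statistic, and 95% intervals from the SE. Coordinates and exon lengths are from GENCODE mouse release 21 (GRCm38), which held 16094 of the 16111 identifiers by stable identifier. Ratios were tested with SciPy 1.17.1, by an exact permutation test. Intervals and floors cover counting error or library spread only, as reads carry no molecular identifiers. All 10 genes, each wider-pathway gene past the threshold and Ahrr are named, and markers past the threshold may be. The 10 genes and all lists were chosen with earlier results of these data known. Alternatives were RLE and upper-quartile scaling, no filter, a mean of 50 counts, DESeq2 1.42.0, limma-voom (limma 3.58.1), the replicate number as a block, thinning to the smallest total, each library left out, 0.5 counts added to ratios, and the longest transcript as the length.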

Additional observations from a re-analysis of the deposited data

How the results depend on the processing

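Of 267 values recomputed, 198 were counted as unchanged. For counts of called genes this meant a count of similar size, even where the genes called differed. For other values it meant the same direction and call, or a move by less than replicate spread. The cause of the changes below was not tested. The number of genes past the threshold, 2232 in the reported fit, was 1390 with the replicate block and 1166 after thinning, and 694 to 3857 with a library left out. The 2 called genes of the 10 became 1, Il1b, with RLE factors, with the replicate block and after thinning, 3 with upper-quartile factors (Il1a gained) and with limma-voom (Il1rap gained), and 1 to 8 with a library left out. With DESeq2 and with no filter they were Il1b and, higher, Pycard. The 5 called wider pathway genes became 3 with the replicate block and 2 to 12 with a library left out. The 2 called neighbours of Il1b became 0 after thinning and 0 to 5 with a library left out. The log2 fold change of Il1rn changed sign to 0.00 after thinning (edgeR adjusted p 0.994) and ran from -0.29 to 0.08 with a library left out, being 0.08 without Ahrr-deficient replicate 2 (edgeR adjusted p 0.748). Il1b kept its call in all 14 fits, with DESeq2 and limma-voom among them. Nlrp3 lost its call with DESeq2 (adjusted p 0.0652), RLE factors (edgeR adjusted p 0.0504), no filter (0.0540) and thinning, and kept it with limma-voom and upper-quartile factors. The differences in log2 ratio ran from -1.58 to -1.28 for Il1b to Il1rn and from -1.50 to -0.98 for Il1b to Il1a with a library left out. The Il1b to Il1a ratio was chosen after seeing the data. The median level of the 10 genes was 33.6 CPM per kb, and 46.1 with the longest transcript as the length. Correlations of same-numbered libraries' deviations were -0.169, 0.0714 and 0.129, and no label says that a number marks a shared litter or day, so the replicate block is not a pairing from the design. Depth limited Il1r2, Il1r1, Il33 and Il18rap, which had too few counts to be tested.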
